A study of Mus musculus with 6 samples.

Results

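A set of 10 cytokine genes outside the type 2 program was followed in double negative T (DNT) cells cultured without or with IL-33. They are Ifng, Tnf, Il6, Il17a, Il21, Il22, Il2, Csf1, Il10 and Tgfb1, and they make up 10 of the 26128 genes listed. The set was chosen by name as cytokines of inflammation, growth and regulation, with earlier results of these data known. DNT cells are mature T cells that carry CD3 but neither CD4 nor CD8. The libraries were made from CD4+CD25− T cells of adult C57BL/6 mice, converted in culture with mature dendritic cells of DBA/2 mice and IL-2, and sorted as CD3+ cells without NK1.1, CD4 and CD8. The sorted cells of all libraries then spent 48 h with anti-CD3/CD28 beads, which engage the T cell receptor and its costimulator. The control group (n = 3 libraries) received the beads alone, and the IL-33 group (n = 3 libraries) received the beads and IL-33 at 50 ng/ml. Conversion in culture, sorting and bead stimulation were thus shared by both groups, and no resting cells were measured. Whether replicates were separate mice, conversions or wells is not given in the sources, so p-values measure only the spread between these libraries.

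The cytokines divide by what they do. IFN-γ, TNF and IL-6, encoded by Ifng, Tnf and Il6, drive inflammation, and IL-17A, IL-21 and IL-22 are products of helper T cells that act on epithelia, stroma or B cells. IL-2 is the growth factor of T cells, and CSF1 is the growth factor of macrophages. IL-10 and TGF-β1 restrain immune responses. IL-33 is an alarmin of the IL-1 family that signals through its receptor ST2 to NF-κB and MAP kinases and is best known for the type 2 cytokines it induces. Many cytokine genes are held silent in resting T cells, are switched on through NFAT, AP-1 and NF-κB after activation, and give mRNAs that are short-lived because proteins bind AU-rich elements in their 3′ untranslated region (UTR).

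With IL-33, Ifng was 1.95-fold and Il6 2.07-fold higher, and Csf1 was 2.22-fold and Tnf 1.57-fold lower. Of the 10 genes, 8 passed the filter on low counts, while Il2 and Il22 did not. Past both thresholds, an adjusted p of 0.05 and a fold change of 1.5, were 4 of the 8 genes tested, 2 higher and 2 lower with IL-33. Of all 14671 genes tested, 4.87% passed both thresholds, 2.47% as higher and 2.39% as lower. By adjusted p alone, 5 of the 8 passed, the fifth being Tgfb1, against 27.5% of all genes. The groups did not overlap in 7 of the 8, against 38.9% of all genes. The 7 include Il17a, whose groups parted by a narrow margin, and Il21, which passed the filter only through its IL-33 libraries. The median log2 fold change was 0.16 for the 8 cytokine genes and -0.0006 for all genes tested. Because the set was chosen with earlier results of these data known, these shares describe it and are not a test.

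Because both inducible transcription and mRNA stability bear on these genes, the promoters of the 4 genes past both thresholds are shown first. Each is the RefSeq window (GRCm38.p6) of 250 bases before and 50 bases after the start site, printed 5′ to 3′ on the strand of the gene. It was read at chr10:118440796-118441095 (plus strand) for Ifng, chr5:30012864-30013163 (plus strand) for Il6, chr17:35201958-35202257 (minus strand) for Tnf and chr3:107760420-107760719 (minus strand) for Csf1. Capitals mark matches, on either strand, to the NF-κB letters GGNNNTTCC, the AP-1 letters TGANTCA and the TATA box letters TATAAA.
Ifng: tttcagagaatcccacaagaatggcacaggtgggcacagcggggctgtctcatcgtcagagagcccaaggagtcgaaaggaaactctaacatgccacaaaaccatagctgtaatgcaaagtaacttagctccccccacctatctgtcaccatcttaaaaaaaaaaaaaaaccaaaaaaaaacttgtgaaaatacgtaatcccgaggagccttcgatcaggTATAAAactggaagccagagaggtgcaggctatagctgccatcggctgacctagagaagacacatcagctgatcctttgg
Il6: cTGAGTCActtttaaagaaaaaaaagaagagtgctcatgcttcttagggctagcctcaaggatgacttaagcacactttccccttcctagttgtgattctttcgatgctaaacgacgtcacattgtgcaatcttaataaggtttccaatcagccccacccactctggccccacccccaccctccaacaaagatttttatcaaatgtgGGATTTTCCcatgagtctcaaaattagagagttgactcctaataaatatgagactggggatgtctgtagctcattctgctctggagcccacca
Tnf: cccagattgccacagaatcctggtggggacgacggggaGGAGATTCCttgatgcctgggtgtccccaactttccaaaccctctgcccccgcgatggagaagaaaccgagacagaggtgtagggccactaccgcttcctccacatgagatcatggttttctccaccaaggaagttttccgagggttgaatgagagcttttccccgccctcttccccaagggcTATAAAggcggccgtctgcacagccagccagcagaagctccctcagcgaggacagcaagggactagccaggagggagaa
Csf1: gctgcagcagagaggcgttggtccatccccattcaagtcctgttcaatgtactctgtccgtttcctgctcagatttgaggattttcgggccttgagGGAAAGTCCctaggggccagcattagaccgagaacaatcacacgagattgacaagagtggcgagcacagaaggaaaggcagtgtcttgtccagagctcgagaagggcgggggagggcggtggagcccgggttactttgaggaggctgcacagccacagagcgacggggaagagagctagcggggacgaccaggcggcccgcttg

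A window was found for 9 of the 10 genes. The NF-κB letters were present in 3 of the 9 windows, those of Il6, Tnf and Csf1, and in 18.5% of all 32851 promoter windows of the same length. They began at base -43 in Il6 and -212 in Tnf on the strand of the gene, and at -154 in Csf1 on the opposite strand, where -1 is the base before the start site. Of these, Il6 was higher with IL-33 while Tnf and Csf1 were lower. The AP-1 letters were present in 2 of the 9 windows, at -249 in Il6 and at -244 in Il17a, and in 7.81% of all windows. The TATA box letters were present in 5 of the 9 windows and in 13.6% of all windows, beginning at -30 in Ifng, -29 in Tnf, -31 in Il2, -31 in Il17a and -170 in Il22. The NFAT core GGAAAA, which is not capitalised above, was present on either strand in 4 of the 9 windows, those of Il2, Il21, Il6 and Tnf, and in 23.4% of all windows. In Il6 it began at -40 and overlapped the NF-κB letters. These matches describe letters and were not tested against the measured changes.

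The AU-rich heptamer TATTTAT was present in most of the cytokine genes. In the longest annotated 3′ UTR of each gene (GENCODE M21, GRCm38), 9 of the 10 held it, all but Tgfb1, against 29.8% of 11875 protein-coding genes tested. At least 3 copies were present in 6 of the 10, against 3.95% of those genes. Among the 8841 genes with a 3′ UTR in the length range of the 10, the shares were 23.5% and 1.89%. Tnf held 8 copies, Ifng, Il10 and Il22 held 4 each, Il2 and Il17a held 3 each, Il21 held 2, and Il6 and Csf1 held 1 each. A link between copies and the measured changes was not tested. The genes that rose and those that fell past both thresholds each included a gene with many copies and a gene with 1. Sites of 30 bases from the UTRs of these 4 genes, and of Il10, are given 5′ to 3′ as DNA with the heptamer in capitals, to show how the densest cluster differs from single copies.
Tnf: TATTTATTATTTATTTATTATTTATTTATt
Ifng: aaatctaaaccTATTTATtaatatttaaaa
Il10: tctctccgaaaTATTTATtacctctgatac
Il6: tttatgattgaTATTTATtatttttatgaa
Csf1: catactgccacTATTTATtgtgggccctgg

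The libraries were similar in depth. They held 20256342 to 22336050 counts in all, and a count of 0 in a library allows a level of up to 0.134 to 0.148 CPM, the level of 3 counts. CPM here are counts per 1000000 counts of the library, after TMM scaling between libraries. Such limits, and the intervals of ratios of counts, cover counting error only. All 12 T cell identity genes were above 1 CPM in both groups, and none of them passed both thresholds. The sort was checked against the genes of its surface markers, and not all of them were low. Cd4 was at 0.934 ± 0.183 CPM without and 0.373 ± 0.143 CPM with IL-33 (SD, n = 3 per group), and was lower past both thresholds (log2 fold change -1.31, adjusted p = 0.0233 in edgeR). Cd8a, whose protein the gate excluded, was at 545 ± 13.6 CPM without and 400 ± 9.15 CPM with IL-33, and Klrb1c, the gene of NK1.1, was at 33.5 ± 2.57 and 25.6 ± 1.16 CPM. Cd8b1, the other CD8 chain, went the opposite way, from 9.69 ± 1.65 to 16.3 ± 2.07 CPM, and was higher past both thresholds (log2 fold change 0.75, adjusted p = 6.2e-08 in edgeR). These are levels of mRNA and say nothing of the protein on the cell surface. In bulk RNA, fewer cells of a type and less RNA per cell cannot be told apart.

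Ifng encodes IFN-γ, the macrophage-activating cytokine of type 1 T cells and NK cells, and lies at chr10:118441046-118445892 on the plus strand (GRCm38, as are the gene positions that follow). It was at 38.4, 43.6 and 46.3 CPM in the 3 control libraries and at 85.3, 83.9 and 80.4 CPM in the 3 IL-33 libraries. Every IL-33 library was well above every control library, and the IL-33 libraries lay closer together. The mean went from 42.7 ± 4.03 to 83.2 ± 2.50 CPM (SD, n = 3 per group), and the fitted log2 fold change was 0.96 (standard error, SE, 0.052, 95% interval 0.86 to 1.06, adjusted p = 4.1e-29 in edgeR). This was 1.95-fold higher with IL-33.

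Il6 encodes IL-6, an inducer of the acute phase response and a helper of Th17 and follicular T cell differentiation, and lies at chr5:30013114-30019981 on the plus strand. It was at 5.61, 5.81 and 4.43 CPM without IL-33 and at 11.6, 10.2 and 10.8 CPM with it. The groups were far apart relative to their spread although the gene was expressed at a low level. The log2 fold change was 1.05 (SE 0.14, 95% interval 0.78 to 1.32, adjusted p = 3.4e-10 in edgeR), or 2.07-fold higher with IL-33.

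Tnf encodes TNF, a cytokine made early after T cell activation, and lies at chr17:35199381-35202007 on the minus strand. It was at 16.4, 17.4 and 20.3 CPM without IL-33 and at 12.7, 10.1 and 11.6 CPM with it. All IL-33 libraries were below all control libraries, so Tnf moved in the direction opposite to Ifng and Il6. The mean went from 18.0 ± 2.02 to 11.5 ± 1.28 CPM (SD, n = 3 per group), and the fitted log2 fold change was -0.66 (SE 0.11, edgeR adjusted p = 2.0e-07), or 1.57-fold lower with IL-33. Its fold change was near the threshold. Without the third control library the log2 fold change was -0.56 and without the second IL-33 library -0.57, both short of a fold change of 1.5 although the adjusted p stayed under 0.05.

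**Figure D1:**
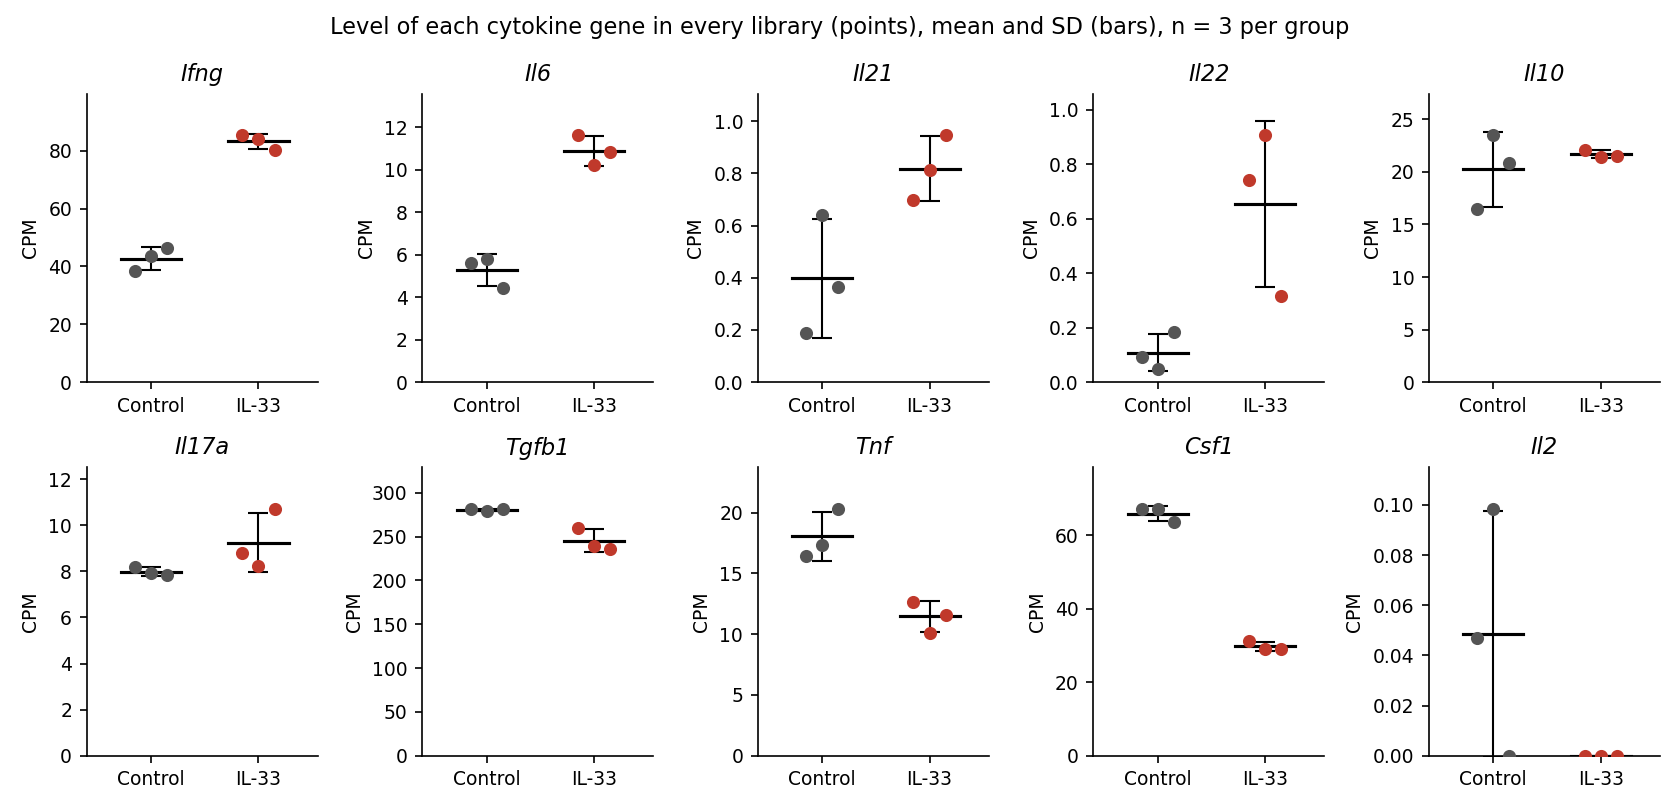
Level in CPM (linear axes from 0) of each of the 10 cytokine genes in the 3 control libraries (grey points) and the 3 IL-33 libraries (red points), with the mean (line) and SD (bars). Ifng and Il6 lie higher and Csf1, Tnf and Tgfb1 lower in every IL-33 library, while the groups overlap for Il10 and Il2.

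Il17a, Il21 and Il22, the cytokines of helper T cells, were all at higher means with IL-33, but none passed both thresholds. Il17a encodes IL-17A, which recruits neutrophils through its action on epithelia and stroma, and lies at chr1:20730905-20734496 on the plus strand. It was at 8.20, 7.92 and 7.85 CPM without IL-33 and at 8.79, 8.25 and 10.7 CPM with it. The groups did not overlap, by a narrow margin, and the third IL-33 library lay above all others. The log2 fold change was 0.21 (95% interval -0.04 to 0.47, adjusted p = 0.23 in edgeR), so a rise of 1.5-fold lay outside the interval.

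Il21 encodes IL-21, a cytokine that helps B cells and lies at chr3:37222759-37232636 on the minus strand. Only 4, 13 and 8 counts fell on it in the control libraries and 15, 17 and 21 in the IL-33 libraries. Every IL-33 library was higher, at levels of 0.698 to 0.945 CPM against 0.188 to 0.640 CPM. The summed counts were 25 and 53, a ratio per total count of 2.06 (95% exact interval 1.25 to 3.45), and the fitted log2 fold change was 1.04 (95% interval 0.11 to 1.98, adjusted p = 0.091 in edgeR). This did not pass the threshold with all libraries. With each library left out in turn, it passed only without the second control library, the highest of its group (log2 fold change 1.54, adjusted p = 0.045 in edgeR). In the other such fits the adjusted p was 0.117 to 0.359 in edgeR. Il21 passed the filter only through its IL-33 libraries.

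Il22 encodes IL-22, which acts on epithelial cells, and lies at chr10:118204942-118210047 on the plus strand. It received 2, 1 and 4 counts in the control libraries and 16, 19 and 7 in the IL-33 libraries, too few to pass the filter. The lowest IL-33 library was above the highest control library. The summed counts of 7 and 42 gave a ratio per total count of 5.82 (95% exact interval 2.59 to 15.3), which covers counting error only. In a fit with no filter on low counts its log2 fold change was 2.51 (adjusted p = 0.0038 in edgeR). Its mean with IL-33 was 0.655 ± 0.305 CPM (SD, n = 3), and the third IL-33 library was the lowest of its group.

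Of the growth cytokines, Csf1 was lower with IL-33 and Il2 was at the limit of detection. Csf1 encodes the growth factor on which macrophages depend, and lies at chr3:107741048-107760469 on the minus strand. It was at 67.1, 67.2 and 63.6 CPM without IL-33 and at 31.1, 29.0 and 29.1 CPM with it. The replicates of each group lay close together and the groups far apart. The log2 fold change was -1.15 (SE 0.059, 95% interval -1.26 to -1.03, adjusted p = 4.5e-33 in edgeR), which made Csf1 2.22-fold lower with IL-33. Its fitted fold change was the largest in size among the 8 genes tested.

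Il2 encodes the autocrine growth factor that activated T cells release, and lies at chr3:37120523-37125959 on the minus strand, where it overlaps Adad1 on the other strand. It received 1, 2 and 0 counts in the control libraries and 0 in each IL-33 library. With 0 counts summed over the IL-33 group, a level of up to 0.0460 CPM is allowed there. Both groups were at or under that kind of limit, and no fold was taken. Il2 was measured at 48 h only.

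The regulatory cytokines moved little. Il10 encodes IL-10, which restrains antigen-presenting cells, and lies at chr1:131019845-131024974 on the plus strand. It was at 16.4, 23.5 and 20.8 CPM without IL-33 and at 22.1, 21.5 and 21.5 CPM with it. The second control library was above all IL-33 libraries, so the groups overlapped. The log2 fold change was 0.10 (95% interval -0.08 to 0.28, adjusted p = 0.45 in edgeR), and without the first control library, the lowest, it was -0.03. A change of 1.5-fold in either direction lay outside the interval with all libraries.

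Tgfb1 encodes TGF-β1, a cytokine with roles in regulatory and Th17 cell differentiation, and lies at chr7:25687002-25705077 on the plus strand. It was at 281, 279 and 281 CPM without IL-33 (mean 280.3 ± 1.56, SD, n = 3) and at 260.1, 240 and 236 CPM with it. The control libraries were nearly alike and all IL-33 libraries were lower. Its log2 fold change of -0.19 (SE 0.033, 95% interval -0.26 to -0.13, adjusted p = 9.2e-07 in edgeR) passed the test on the adjusted p, and at 1.14-fold lower it was short of the fold threshold.

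**Figure D2:**
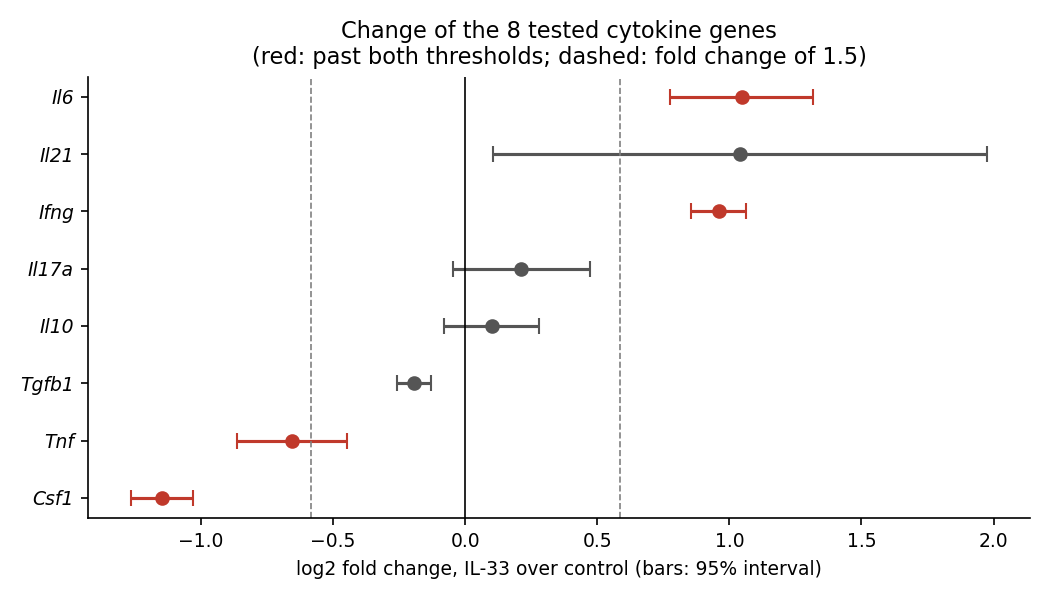
Fitted log2 fold change (IL-33 over control, horizontal axis) of the 8 cytokine genes tested, with 95% intervals as bars, dashed lines at a fold change of 1.5 and genes past both thresholds in red. The interval of Csf1 (-1.26 to -1.03) lies at the far left, those of Ifng and Il6 lie above the dashed line, and the interval of Il21 is the widest.

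Levels of different genes were compared as CPM per kilobase of exon. Without IL-33 the order was Tgfb1 at 55.6, Ifng at 33.0, Il10 at 15.4, Csf1 at 12.5, Tnf at 11.01, Il17a at 6.82 and Il6 at 2.17 CPM per kilobase, followed by Il22, Il21 and Il2 at or under 0.0979. Il10 and Csf1, Csf1 and Tnf, Il22 and Il21, and Il21 and Il2 were neighbours whose libraries overlapped. With IL-33 the order was Ifng at 64.2, Tgfb1 at 48.6, Il10 at 16.6, Il17a at 7.90, Tnf at 6.99, Csf1 at 5.63, Il6 at 4.49, Il22 at 0.590, Il21 at 0.156 and Il2 at 0 CPM per kilobase. Here Il17a and Tnf were the only neighbours that overlapped. Ifng thus passed Tgfb1 to become the cytokine with the highest level per length of the 10, and the drop of Csf1 and the rise of Il6 brought these genes close to each other.

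The 10 genes together summed to 433.4 to 445.3 CPM without IL-33 and 401.5 to 433.1 CPM with it, close ranges that did not overlap. Without Tgfb1 the sums were 152.5 to 166.2 CPM and 164.6 to 173.1 CPM, and these ranges overlapped. The shares of the genes shifted. Ifng held 8.85% to 10.4% of the summed counts of the 10 genes in the control libraries and 19.7% to 20.8% in the IL-33 libraries. The share of Csf1 went from between 14.3% and 15.5% to between 7.17% and 7.25%. Tgfb1 held the largest share in each library, 62.6% to 64.8% without and 58.8% to 60.0% with IL-33.

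**Figure D3:**
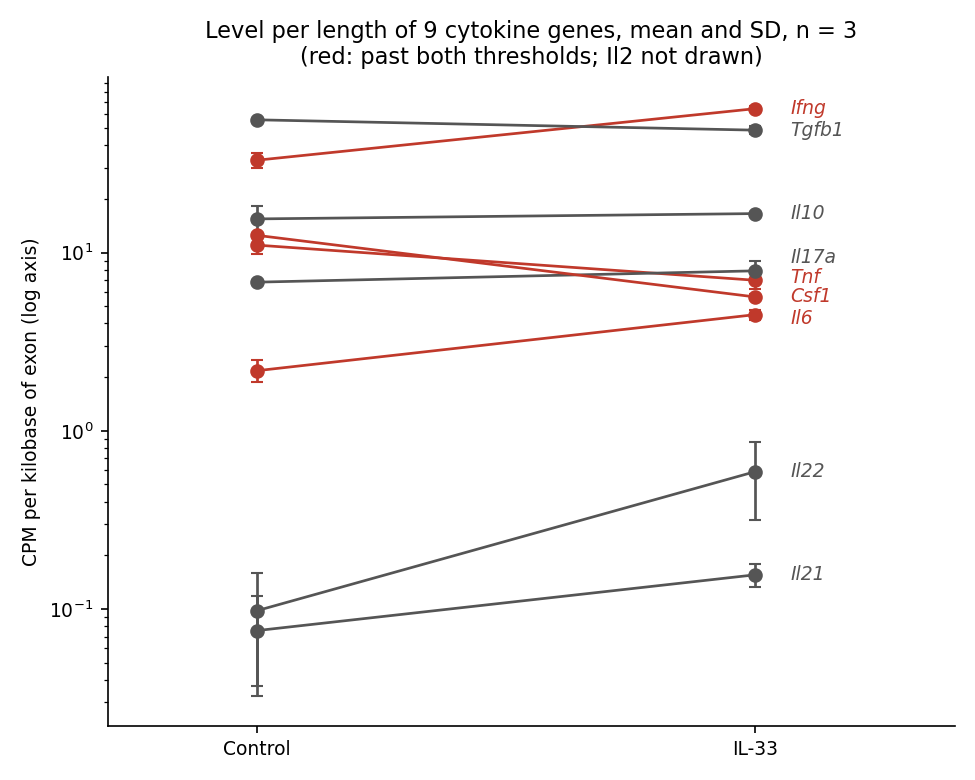
Mean level per length (CPM per kilobase of exon, log axis) of 9 of the cytokine genes in the control and the IL-33 group, with SD as bars (n = 3) and genes past both thresholds in red. Il2 is not drawn because it is at 0 with IL-33. The lines of Ifng and Tgfb1 cross, at 33.0 and 55.6 without against 64.2 and 48.6 with IL-33.

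The genes next to the cytokines were examined in windows of 100000 bases on either side. Leaving out the 10 cytokine genes themselves, 0 of 34 protein-coding neighbours tested passed both thresholds, against 4.87% of all genes tested. Their log2 fold changes ran from -1.01 for Aif1 to 0.84 for Lst1, both next to Tnf and both at low levels. Tnf shares its cluster with the related genes Ltb and Lta, the genes of lymphotoxin. Ltb, at 98.3 CPM without and 83.4 CPM with IL-33, fell by 0.24 on the log2 scale (adjusted p = 2.8e-06 in edgeR), and Lta, at 2.69 and 2.18 CPM, had a log2 fold change of -0.30 (adjusted p = 0.38 in edgeR). Mcm3, a replication gene next to Il17a, fell by 0.48 on the log2 scale (adjusted p = 1.2e-19 in edgeR), and Tyms, the gene of thymidylate synthase next to Il6, fell by 0.32 (adjusted p = 3.2e-06 in edgeR), both short of the fold threshold.

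Of the 39 neighbours of any kind tested, 2 passed both thresholds, a share close to the 4.87% of all genes tested. Both lie at Ifng. They are non-coding or unclassified and are named here after their values were seen. Ifngas1, a long non-coding RNA gene 56143 bases from Ifng on the opposite strand, was at 1.60, 1.48 and 0.867 CPM without IL-33 and at 2.46, 2.81 and 2.25 CPM with it. It was higher in every IL-33 library, in the same direction as Ifng, by 0.93 on the log2 scale (SE 0.27, edgeR adjusted p = 0.0050). Gm49751, a gene model that lies within Ifng on the same strand, had a log2 fold change of 0.72 (adjusted p = 0.0030 in edgeR) with groups that overlapped. Reads from Gm49751 and Ifng cannot be told apart where the gene models coincide, and whether the counting used strand is not stated.

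The receptor chains of the 10 cytokines were read as mRNA in the same libraries. Of 20 chains listed, 16 were tested, and 4 were higher and 6 lower by adjusted p. Past both thresholds 2 were lower, and the median log2 fold change was -0.04. Of all genes tested, 27.5% passed by adjusted p and 4.87% passed both thresholds, with a median log2 fold change of -0.0006. These values are the background for this list and those that follow, and no list was tested as a set. Ifngr2, the signal-transducing chain of the IFN-γ receptor, went from 8.30 ± 0.0361 to 4.89 ± 1.24 CPM (log2 fold change -0.76, adjusted p = 2.4e-05 in edgeR), while its ligand-binding partner Ifngr1 rose from 511 ± 12.1 to 594 ± 7.08 CPM (log2 fold change 0.22, adjusted p = 6.2e-11). Il17rc, a chain of the IL-17 receptor, was lower at a low level (log2 fold change -1.25, adjusted p = 0.0024 in edgeR). The chains with the highest CPM, not scaled to length, were Il2rb and Il2ra of the IL-2 receptor. Il2rb was at 3110 CPM without and 3249 CPM with IL-33 and Il2ra at 951 and 1194 CPM, with log2 fold changes of 0.06 and 0.33 (adjusted p = 0.0086 and 5.9e-23 in edgeR). The shared chain Il2rg, at 126 and 115 CPM, fell by 0.13 on the log2 scale (adjusted p = 0.0072 in edgeR). Il2 itself was at or near 0 in these libraries. Csf1r, the receptor of CSF1 on macrophages, was at 0.153 and 0.305 CPM without and with IL-33, and is named after its values were seen.

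Among 18 tested genes of 38 other cytokines outside type 2, 3 were higher past both thresholds and 0 lower, with a median log2 fold change of 0.10. By adjusted p alone 6 were higher and 1, Ltb, lower, where 27.5% of all genes tested passed in either direction. Tgfb3, a relative of Tgfb1, went from 18.7 ± 2.19 to 38.4 ± 3.62 CPM (log2 fold change 1.04, adjusted p = 8.7e-20 in edgeR), opposite in direction to Tgfb1. Vegfa, the main growth factor of blood vessels, went from 70.4 ± 5.18 to 136 ± 12.8 CPM (log2 fold change 0.95, adjusted p = 1.9e-05 in edgeR). Inhba, which encodes the activin A subunit of the TGF-β family, was at 0.973 and 1.81 CPM (log2 fold change 0.89, adjusted p = 0.0295 in edgeR). Lif and Il16, with high CPM in this list, had log2 fold changes of 0.10 and -0.05 and did not pass the test. DESeq2 called 2 genes of this list.

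Of the 36 transcription regulators of these cytokines, all tested, 9 were higher and 18 lower by adjusted p, and 1 was higher and 5 were lower past both thresholds, with a median log2 fold change of -0.15. Fos, a subunit of AP-1, was higher (log2 fold change 0.75, adjusted p = 1.1e-05 in edgeR). Maf, an activator of Il10 and Il21, went from 118 to 75.1 CPM (log2 fold change -0.65, adjusted p = 2.2e-22 in edgeR). Il10 had an interval of -0.08 to 0.28, and Il21 a log2 fold change of 1.04 (adjusted p = 0.091 in edgeR). The part of Maf in either gene was not tested. Egr2 and Egr3, which are induced by the T cell receptor and limit activation, had log2 fold changes of -0.70 and -1.03 (adjusted p = 1.6e-14 and 0.018 in edgeR). Hlx, a cofactor of T-bet at Ifng, was also past both thresholds, with a log2 fold change of -0.97 and groups that overlapped, and is named after its values were seen. The 6 calls of this list were 5 with DESeq2, no filter, the stricter filter or the replicate number as a block, and 4 to 5 with libraries left out (4 without the first and without the second IL-33 library). Tbx21, the gene of T-bet, was not among the genes set to be named, and its log2 fold change of -0.26 (adjusted p = 0.00039 in edgeR) was read after the values were seen. Of the 3 regulators with the highest CPM, not scaled to length, Bhlhe40 and Stat3 rose by adjusted p (log2 fold changes 0.17 and 0.26) and Nfkb1, the gene of the NF-κB subunit p50, had a log2 fold change of 0.01 (adjusted p = 0.80 in edgeR).

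**Figure D4:**
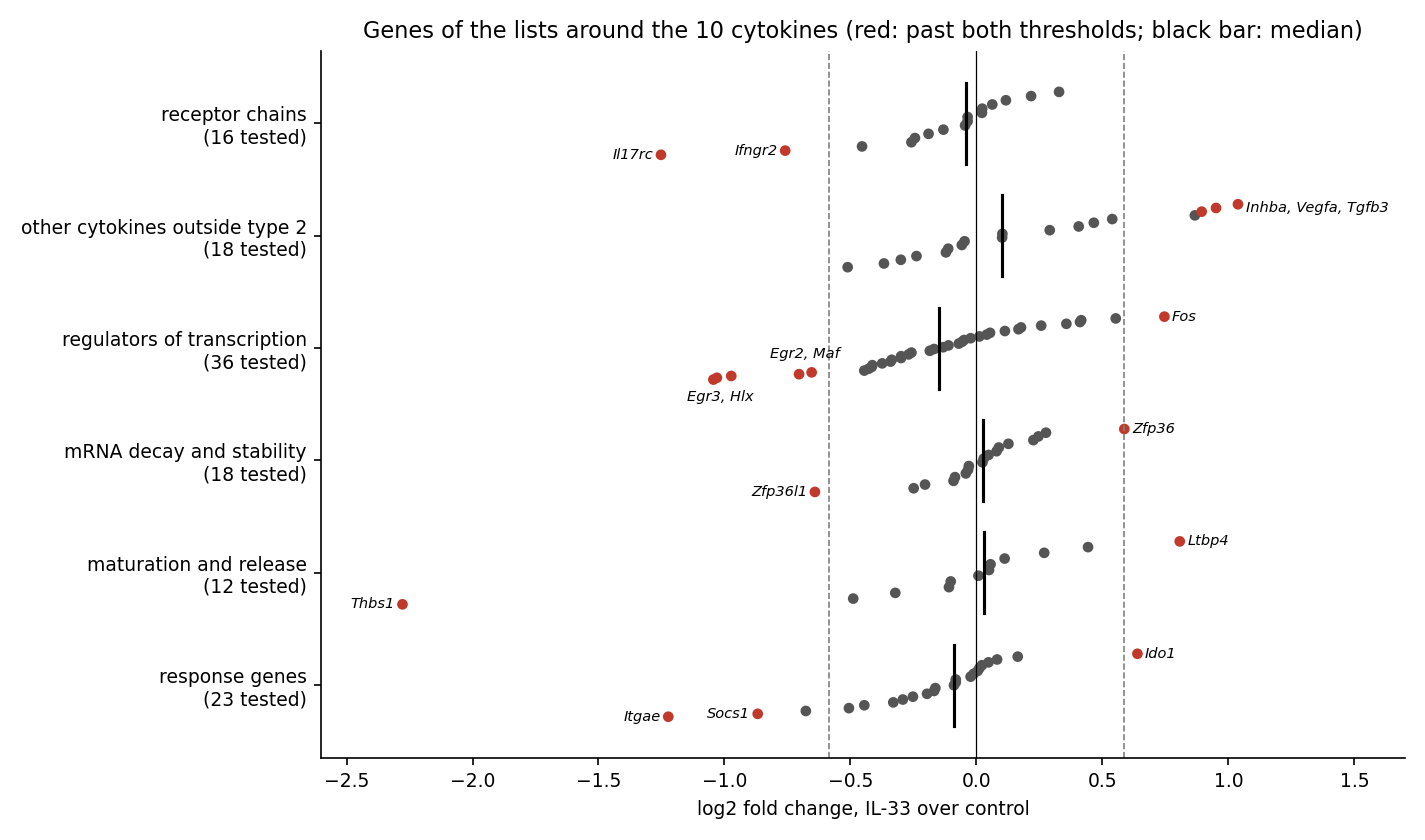
Fitted log2 fold change (IL-33 over control, horizontal axis) of each tested gene in 6 lists around the cytokines, with genes past both thresholds in red, those described in the text named, list medians as black bars and dashed lines at a fold change of 1.5. The list medians lie between -0.15 and 0.10, and the named genes on either side include Egr3 and Maf at the left and Tgfb3 and Vegfa at the right.

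Genes of AU-rich element binders were read beside the heptamers shown above. Of 18 genes of mRNA decay and stability tested, 4 were higher and 3 lower by adjusted p, 1 was higher and 1 lower past both thresholds, and the median log2 fold change was 0.03. Zfp36, the gene of tristetraprolin, which binds the AU-rich element of Tnf mRNA and promotes its decay, went from 66.0 ± 3.11 to 99.2 ± 2.92 CPM (log2 fold change 0.59, adjusted p = 6.4e-22 in edgeR), just past the fold threshold. Without the third control library, and without the first IL-33 library, 1 gene of the list was past both thresholds. Zfp36l1, a protein of the same family, went the other way, from 23.4 ± 1.21 to 15.02 ± 0.627 CPM (log2 fold change -0.64, adjusted p = 2.8e-09 in edgeR). Zfp36l2 and Hnrnpd, with higher CPM, had log2 fold changes of 0.13 and -0.25, and Cnot1 one of 0.02. Ifng and Tnf, which both hold 4 or more heptamers, moved in opposite directions. Decay of mRNA was not measured, and the part of these binders in the changes was not tested.

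Among 12 tested genes of cytokine maturation and release, 2 were higher and 4 lower by adjusted p, where 27.5% of all genes tested passed. Past both thresholds 1 was higher and 1 lower, both at low levels, against 2.47% and 2.39% of all genes tested. Ltbp4, which tethers latent TGF-β to the matrix, had a log2 fold change of 0.81 (adjusted p = 0.011 in edgeR), and Thbs1, which can activate latent TGF-β, one of -2.28 (adjusted p = 0.0010 in edgeR). These calls depended on the tool and on single libraries, since DESeq2 called 0 genes of this list, and 1 gene was past both thresholds without the second control library, the first IL-33 library or the third IL-33 library. Adam17, the sheddase of TNF, and Furin, the convertase of TGF-β1, had log2 fold changes of 0.01 and 0.06, and Itgav, a chain of the integrins that activate TGF-β, one of -0.10.

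Genes that respond to these cytokines were read in the same cells. Of 23 tested, 3 were higher and 9 lower by adjusted p, and 1 was higher and 2 were lower past both thresholds, with a median log2 fold change of -0.09. Ido1, an enzyme of tryptophan breakdown that IFN-γ induces, was higher (log2 fold change 0.64, adjusted p = 0.00081 in edgeR). Socs1, a feedback inhibitor of IFN-γ signaling, went from 47.8 ± 0.273 to 26.2 ± 3.01 CPM (log2 fold change -0.87, adjusted p = 1.0e-20 in edgeR). Itgae, the gene of CD103, which TGF-β induces in T cells, went from 18.2 ± 1.29 to 7.77 ± 1.15 CPM (log2 fold change -1.22, adjusted p = 1.2e-16 in edgeR). Without the first control library, and without the first IL-33 library, 2 genes of the list were past both thresholds. Of the genes with the highest CPM, Gbp4 fell by 0.16 on the log2 scale, and Irf8 and Pim1 had log2 fold changes of 0.05 and 0.08. Gbp2, a target of IFN-γ picked after its values were seen, fell by 0.51 on the log2 scale (adjusted p = 1.4e-21 in edgeR). Gbp3, Gbp5 and Gbp7, also read after the values were seen, had log2 fold changes of -0.08, -0.02 and -0.08. None of these passed by adjusted p (0.23, 0.83 and 0.068 in edgeR). A link between the response genes and the rise of Ifng was not tested.

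Markers of other cells that could supply these cytokines were read beside them. Of 17 dendritic and myeloid markers, 8 were tested, and 3 were higher (Batf3, Itgam and Fcgr3) and 1 lower (Itgax) past both thresholds. Over all genes tested, 4.87% passed both in either direction. The sum of the dendritic and myeloid markers was 120.7 to 125.3 CPM without and 120.3 to 133.5 CPM with IL-33. Csf1r, Lyz2, Flt3 and Adgre1 were at means of at most 0.305 CPM in either group. Other markers of this list were well expressed, with Itgax at 54.6 CPM without and 26.0 CPM with IL-33 and Fcgr3 at 18.6 and 39.5 CPM. Cd68 was at 29.4 and 33.6 CPM and Xcr1 at 11.5 and 12.4 CPM, so the sum holds changes in both directions. Of 9 mast cell and basophil markers, 3 were tested and Cpa3 was lower past both thresholds, and the sum was 16.4 to 22.9 CPM without and 12.2 to 14.9 CPM with IL-33, in the direction of Tnf and Csf1 and opposite to Il6. Of 8 B cell markers 2 were tested and 0 passed, with sums of 5.02 to 5.75 and 5.53 to 6.75 CPM. Among 6 NK cell markers, Ncr1 was at means of 0.0478 and 0.106 CPM, while Gzma, which T cells also express, made up nearly all of the sum of 15560 to 16430 CPM. Klrb1c and Klre1 were at 33.5 and 9.66 CPM without and at 25.6 and 9.3 CPM with IL-33. The part of any such cells in the changes of Ifng, Il6, Tnf and Csf1 was not tested.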

How the data were processed

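RNA of 6 libraries was sequenced, 3 of DNT cells without and 3 with IL-33, grouped by their labels. For each gene and library the authors deposited a raw read count, not normalized, and 1 column of signal that equals the mean of counts divided by the size factors of DESeq2 (differences of at most 2.1e-07%), which was used for that check only. The submitters' processing notes name Bowtie 0.12.2 and the build mm8 without their role, neither the counting program nor the use of strand is given in the sources used here, and the labels and the study's methods name different library kits. Positions and lengths were taken from GENCODE M21 (GRCm38) by Ensembl identifier, for which 26072 of 26128 genes matched.

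Genes were filtered with filterByExpr (minimum count 10, minimum total count 15), scaled by TMM and tested by group in edgeR (robust quasi-likelihood, two-sided, no covariates), with Benjamini-Hochberg adjustment over 14671 genes. The thresholds on the adjusted p (0.05) and the fold change (1.5) are those of the study. Means and SDs are in CPM, and ratios of counts have exact binomial 95% intervals. The software was edgeR 4.0.16, DESeq2 1.42.0 and limma 3.58.1 under R 4.3.3. The cytokines and all lists were chosen with earlier results of these data known. Named were the 10 genes, protein-coding neighbours within 100000 bases, and from each list those past both thresholds whose groups did not overlap, with up to 3 further genes of highest mean CPM. Il2rg, the genes of the sort markers and several cell type markers were also named outside this rule. Neighbours outside it and other exceptions are said to be so in the text. Some genes of the lists, counted in them, are not reported here by name. Alternatives were DESeq2, limma-voom, edgeR with DESeq2 size factors, no filter, a stricter filter (1 CPM or more in all libraries of either group), the replicate number as a block, and each library left out in turn. No pair of replicates agreed within counting noise.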

Additional observations from a re-analysis of the deposited data

How the results depend on the processing

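Ifng, Tnf, Il6, Csf1, Tgfb1 and Il17a did not change direction, or side of the adjusted p threshold, in any of 12 alternatives. With each library left out in turn, the log2 fold change ran from 0.89 to 1.02 for Ifng, 0.93 to 1.12 for Il6, -1.18 to -1.13 for Csf1, -0.73 to -0.56 for Tnf, -0.23 to -0.16 for Tgfb1, 0.10 to 0.29 for Il17a, 0.71 to 1.54 for Il21 and -0.029 to 0.22 for Il10. Il10 changed sign without the first control library (-0.029, adjusted p = 0.87 in edgeR). Il21 passed the adjusted p without the second control library (1.54, adjusted p = 0.045 in edgeR) and in no other alternative. Il22 had a fold change in 6 alternatives and an adjusted p in 5. Its log2 fold change was 2.51 with no filter (adjusted p = 0.0038 in edgeR) and 2.58 in DESeq2, which gave no adjusted p for it. With libraries left out it was 2.18 to 3.08 (adjusted p = 0.00046 to 0.020 in edgeR) in the 4 such fits that kept it. In those fits Il22 passed the filter only through its counts in the IL-33 libraries. Without the first or the second IL-33 library it did not pass the filter and was not tested. Il21 was not tested under the filter of at least 1 CPM, and Il2 gave no value in any fit.

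The 4 cytokine genes past both thresholds were past them in all settings that kept all libraries, and Il22 joined them with no filter. With libraries left out 3 to 6 were past them, counting Il22 where it passed the filter through its IL-33 counts. Tnf was lost without the third control library and without the second IL-33 library. Over all genes, 501 (DESeq2) to 724 (limma-voom) passed where the fit as reported gave 714. Of the list of mRNA decay and stability, 1 to 2 genes were past both thresholds with libraries left out. Of the list of maturation and release, 0 were past them with DESeq2, 1 with the filter of at least 1 CPM, and 1 to 2 with libraries left out. Of the other lists, 2 to 4 of the further cytokines (2 with DESeq2), 4 to 6 of the regulators and 2 to 3 of the response genes were past them, and 2 of the receptor chains in each setting. The causes of these differences were not tested.

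The deviations of libraries with the same replicate number correlated at 0.0032 to 0.012, and those of libraries with other numbers at -0.014 to 0.0029. All are near 0, and they cannot tell whether libraries were paired in culture, which the sources do not give. With the replicate number as a block 666 genes passed, 657 of them shared with the fit without it, and the log2 fold changes were 0.96 for Ifng, 1.05 for Il6, -1.15 for Csf1 and -0.65 for Tnf, with no cytokine gene changing its call. Depth limits what can be said of Il2, Il21 and Il22, which had at most 21 counts in any library.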
